A study of Mus musculus with 6 samples.

Results

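The pigment epithelium and melanin genes are 10 genes, Tyr, Tyrp1, Dct, Pmel, Mlana, Slc45a2, Oca2, Mitf, Ttr and Best1, out of 22180 genes named by probe sets with exactly 1 gene symbol. They were chosen by symbol, and each is measured by 1 probe set. Whole retina, pooled from both eyes of each animal, was profiled on Affymetrix mouse gene arrays at postnatal day 17 in 3 male Atrx knockout mice (Chx10Cre+/-;Atrx flox/y) and 3 male wildtype littermates (Chx10Cre-/-;Atrx flox/y). All 6 animals carry the floxed Atrx allele on their single X chromosome, and every knockout and no wildtype animal carries the Cre transgene, so the transgene and the loss of Atrx cannot be told apart. Chx10 is a homeobox gene of neural retinal progenitors and bipolar cells, and Atrx encodes a chromatin remodeller. Values are log2 RMA values, on which a difference of 1 is a doubling.

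The retinal pigment epithelium is a single layer of pigmented cells that lies behind the photoreceptors, outside the neural retina. It supports the photoreceptors, recycles the visual chromophore and secretes carriers such as transthyretin. Melanin is made in melanosomes by tyrosinase and its relatives, under the control of the transcription factor MITF, in the pigment epithelium and also in the neural crest melanocytes of the choroid behind it. The labels' protocol gives removal of the lens and then of the retina through a cut in the cornea, and names no step for the pigment epithelium.

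Atrx had log2 values of 8.42, 8.72 and 8.33 on knockout arrays 1, 2 and 3, against 9.04, 8.86 and 9.17 on wildtype arrays 1, 2 and 3. The log2 change of -0.53 (SE 0.12) did not pass the threshold (adjusted p = 0.115, limma). Markers of retina varied little across the arrays, for example rod transducin Gnat1 at 13.65 to 13.70 in knockout and 13.65 to 13.72 in wildtype samples. Sag, Crx, Pde6b, Glul, Nrl, Slc17a7 and Pax6 had log2 changes from -0.09 (Glul) to 0.13 (Sag). Their adjusted p-values were 0.470 to 0.931 (limma). The knockout and wildtype values did not overlap for 3 of the 8 tested retina markers (Sag, Crx and Glul), against 20.3% of all genes. Lens genes set 2 arrays apart: the mean log2 value of 13 lens genes was 10.21 on knockout 2, against 5.96 and 6.40 on knockout 1 and 3, and 11.47 on wildtype 1, against 5.98 and 6.10 on wildtype 2 and 3. Crystallin genes Cryaa, Cryab, Cryba1, Crybb1, Crybb3 and Crygs had log2 changes from -0.43 (Crygs) to 0.20 (Cryaa), with adjusted p-values of 0.949 to 0.992. A further array, knockout 1, stood apart in the melanin genes described here. The log2 changes of these melanin genes and the correlations with them are given with and without it. Correlations of other genes with Ttr are not given without knockout 1.

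Between genotypes none of the 9 tested members differed in limma's test, whose adjusted p-values ran from 0.643 to 0.907 over them. Over all 15619 genes tested, 129 were called at an adjusted p under 0.05, or 0.826%: 0.48% were higher and 0.346% lower in knockout retina. At an unadjusted p under 0.05 there were 0 members, against 2107 genes in all (13.5%). All 9 log2 changes were below 0, with a median of -0.39, whereas the median of all genes was 0.0027 and 49.1% of them lay below 0. The 3 knockout and 3 wildtype values overlapped for each of the 9, while they did not overlap for 20.3% of all genes. Best1 was under the brightness limit, a log2 value of at least 5 on at least 3 arrays, and is described without a test. In whole tissue, fewer cells of a type and less RNA per cell cannot be told apart.

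**Figure D1:**
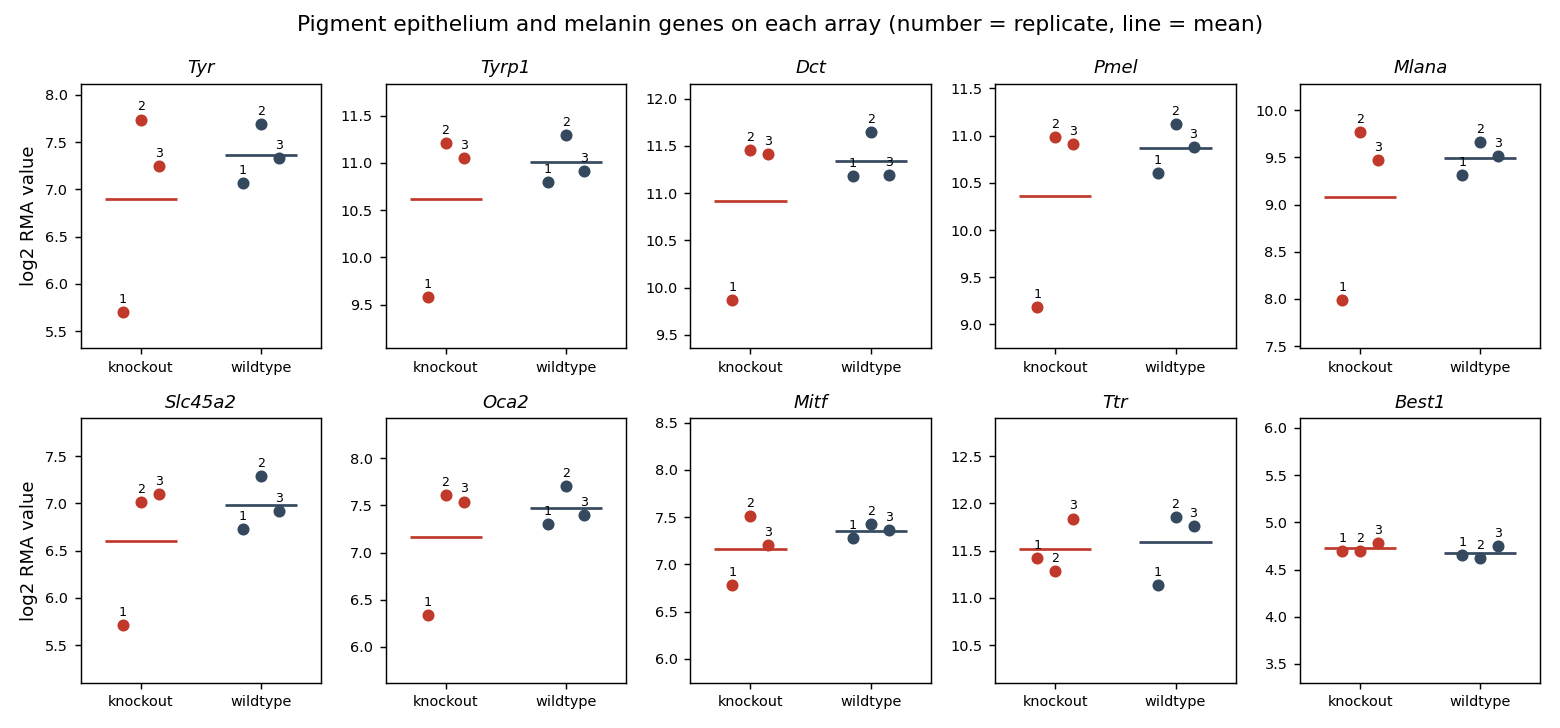
Log2 RMA value (vertical axes, all of the same span) of the 10 genes on each array, knockout on the left and wildtype on the right; points are arrays numbered by replicate and lines are group means. Knockout 1 lies below the other 5 arrays for 8 genes, for example Tyr at 5.70 and Pmel at 9.18, but not for Ttr or Best1.

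The enzymes of melanin synthesis come first. Tyr encodes tyrosinase, the rate-limiting enzyme of the pathway. Its values were 5.70, 7.74 and 7.25 on knockout arrays 1, 2 and 3, against 7.07, 7.69 and 7.33 on wildtype arrays 1, 2 and 3. Knockout 1 was the lowest of all 6, 1.37 log2 units (2.59-fold) below the next, and the other 5 arrays spanned 0.67. The log2 change of Tyr was -0.47 (95% interval -1.50 to 0.57).

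Tyrp1, a tyrosinase-related enzyme of the same family, had values of 9.58, 11.21 and 11.05 in knockout retinas, against 10.80, 11.30 and 10.92 in wildtype retinas. Dct, dopachrome tautomerase, had 9.87, 11.46 and 11.41 in knockout retinas, against 11.18, 11.65 and 11.19 in wildtype retinas. Both genes were also lowest on knockout 1, which lay 1.22 and 1.31 below the next array, while knockout 2 and 3 were inside or near the wildtype range. Their log2 changes were -0.39 (SE 0.38) for Tyrp1 and -0.43 (SE 0.38) for Dct.

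The promoter windows of these 3 enzymes are shown, 250 bases before to 50 after an annotated transcript start, from RefSeq (GRCm38.p6). Any part of these sequences in the array values was not tested. Capitals mark TCATGTG or its reverse complement, the letters known as the M-box, to which MITF is known to bind; the letters were searched on both strands. The window of Tyr is chr7:87493463-87493762 on the minus strand, that of Tyrp1 chr4:80833963-80834262 on the plus strand and that of Dct chr14:118052197-118052496 on the minus strand.
Tyr: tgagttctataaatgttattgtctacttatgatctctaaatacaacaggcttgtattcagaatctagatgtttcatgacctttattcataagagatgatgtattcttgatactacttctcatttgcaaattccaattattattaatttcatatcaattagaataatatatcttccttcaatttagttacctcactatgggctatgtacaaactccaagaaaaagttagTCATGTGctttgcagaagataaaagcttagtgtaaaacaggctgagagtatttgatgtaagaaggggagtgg
Tyrp1: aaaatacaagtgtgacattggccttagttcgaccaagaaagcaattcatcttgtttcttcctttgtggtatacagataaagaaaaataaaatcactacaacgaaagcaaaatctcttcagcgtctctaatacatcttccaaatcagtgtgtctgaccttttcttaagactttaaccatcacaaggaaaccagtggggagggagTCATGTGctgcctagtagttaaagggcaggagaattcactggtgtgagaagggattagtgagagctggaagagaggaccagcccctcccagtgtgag
Dct: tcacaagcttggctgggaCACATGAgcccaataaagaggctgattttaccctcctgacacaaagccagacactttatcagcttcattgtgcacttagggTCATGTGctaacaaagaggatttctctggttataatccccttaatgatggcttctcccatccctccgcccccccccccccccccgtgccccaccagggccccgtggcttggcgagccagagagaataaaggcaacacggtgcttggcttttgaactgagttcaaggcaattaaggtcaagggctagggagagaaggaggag
The first base of the match stood at position -22 from the transcript start in Tyr and at -47 in Tyrp1. In Dct there were matches at -151 and, on the other strand, at -232. Of 8 windows for 6 members (Tyr, Tyrp1, Dct, Oca2, Best1 and 3 windows of Mitf), 3 held these letters, against 3.77% of 32851 windows of the same length. Ttr was left out of this search, and Pmel, Mlana and Slc45a2 had no window in it. The count therefore covers only part of the members. The shorter core CATGTG, which every TCATGTG contains, was also present in the window of Oca2 at -186 and in 14.2% of all windows. A match of letters describes the sequence and was not measured as a binding site here.

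Pmel and Mlana, which encode melanosomal proteins, were lowest on knockout 1 as well. Pmel encodes the protein that forms the fibrils on which melanin is laid down. Its log2 values were 9.18, 10.99 and 10.91 on the knockout arrays, against 10.60, 11.12 and 10.88 on the wildtype arrays. The gap between knockout 1 and the next array, 1.42 (2.67-fold), was the largest among the members. Mlana, which encodes the melanosomal protein MART-1, had values of 7.99, 9.77 and 9.47 in knockout samples, against 9.31, 9.66 and 9.51 in wildtype samples. Knockout 2 was the highest of all 6 arrays for Mlana and knockout 1 the lowest, so the knockout group held both ends of the range. The log2 changes were -0.51 (SE 0.43) for Pmel and -0.41 (SE 0.40) for Mlana.

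The 2 melanosomal membrane transporters had the same lowest array. Slc45a2, a transporter whose loss causes albinism, had values of 5.71, 7.01 and 7.10 on the knockout arrays, against 6.73, 7.29 and 6.92 on the wildtype arrays. Oca2, whose product sets melanosomal ion conductance and pH, had 6.34, 7.61 and 7.54 in knockout retinas, against 7.30, 7.70 and 7.40 in wildtype retinas. For both, knockout 1 lay less far below the next array (1.02 and 0.96) than for the enzymes (1.22 to 1.37). The other 5 arrays overlapped between genotypes. Their log2 changes were -0.37 (SE 0.34) for Slc45a2 and -0.30 (SE 0.31) for Oca2.

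Mitf, the basic helix-loop-helix factor that drives the genes above in pigment cells, also had its lowest value on knockout 1, with a smaller span. It had values of 6.78, 7.51 and 7.20 in knockout retinas, against 7.28, 7.43 and 7.36 in wildtype retinas. Knockout 1 was again the lowest, by 0.43, and knockout 2 the highest. The log2 change was -0.19 (SE 0.17).

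Ttr, which encodes the thyroxine and retinol carrier that the pigment epithelium secretes, was not lowest on knockout 1. Its log2 values were 11.42, 11.28 and 11.84 on knockout arrays 1, 2 and 3, against 11.14, 11.86 and 11.76 on wildtype arrays 1, 2 and 3. Knockout 1 lay between the other knockouts, and the lowest array of each genotype was the one rich in lens RNA, knockout 2 and wildtype 1. The part of lens RNA in this order was not tested. The log2 change of Ttr was -0.08 (95% interval -0.55 to 0.40), and with the lens list mean as a covariate it was -0.11 (SE 0.13, adjusted p = 0.749).

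Best1, a calcium-activated chloride channel of the pigment epithelium, stayed dim and flat. Values of 4.70, 4.70 and 4.78 were measured in knockout retinas, against 4.65, 4.62 and 4.75 in wildtype retinas. The group means of 4.73 ± 0.05 in knockout and 4.67 ± 0.07 in wildtype samples (SD, n = 3 each) differed by 0.05. At this brightness background signal compresses any difference. The probe set did not show the drop on knockout 1 that the melanin genes did, nor the Ttr pattern.

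The difference between genotypes rested on knockout 1 for the 8 members other than Ttr and Best1. Without that array each of the 8 log2 changes turned positive, from 0.0038 for Mitf and 0.08 for Pmel and Slc45a2 to 0.13 for Tyr, Tyrp1 and Mlana. The widest interval then belonged to Tyr, -0.35 to 0.61, and the narrowest to Mitf, -0.26 to 0.27. The SE of Pmel became 0.15 without knockout 1, against 0.43 with it. Neither set of arrays gave a call, and a missed threshold does not show that the genotypes are alike.

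**Figure D2:**
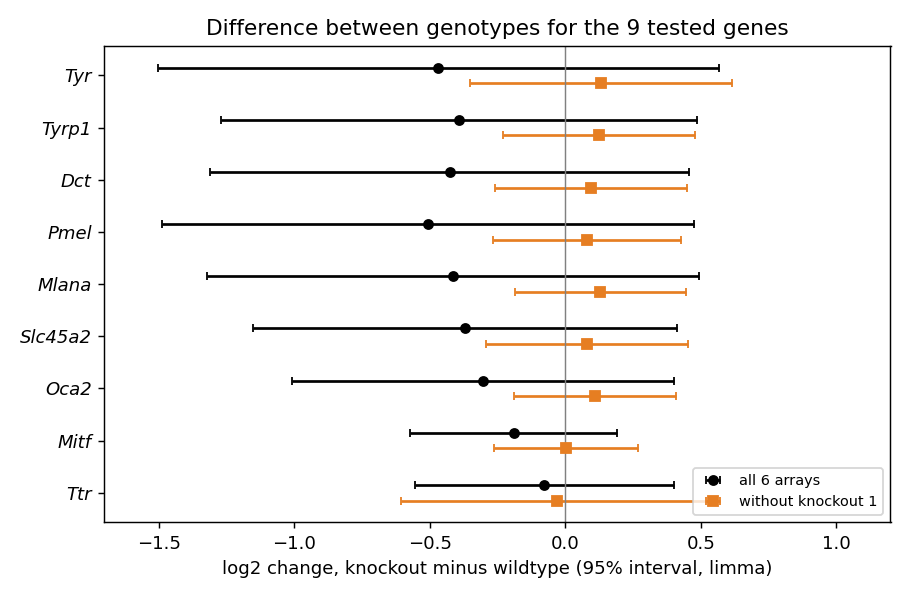
Log2 change, knockout minus wildtype (horizontal axis), of the 9 tested genes; points are limma estimates and bars 95% intervals, black for all 6 arrays and orange without knockout 1. All intervals include 0, and 8 of the 9 estimates move from below 0 to above 0 when knockout 1 is left out.

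The members varied widely between arrays of one genotype. The residual SD of the fit was 0.79 for Tyr, 0.74 for Pmel, 0.66 for Tyrp1 and 0.27 for Mitf. Across all tested genes, the 9 members lay at or above the 94.6th percentile of residual SD, and 7 of the 9 above the 99.5th. This spread was not confined to knockouts: wildtype 2 exceeded wildtype 1 by 0.62 for Tyr, by 0.51 for Pmel and by 0.73 for Ttr. Wildtype arrays ran in one order, wildtype 1 lowest, then wildtype 3, then wildtype 2, for all 9 tested members. The share of all genes with this order is not given here.

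Over the 6 arrays the 8 members other than Ttr and Best1 moved almost as one. Pearson's r between them ran from 0.894 to 0.999 over 28 pairs, with a median of 0.988. Without knockout 1 the 28 values ran from 0.272 to 0.992, with a median of 0.870 over 5 arrays. With Ttr, the 8 genes had r between 0.105 and 0.433 over 6 arrays. Over the 5 arrays without knockout 1 their r with Ttr ran from -0.198 to 0.742, with a median of 0.409. These values describe 6 arrays that share one normalization, and genes on one array are not independent.

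**Figure D3:**
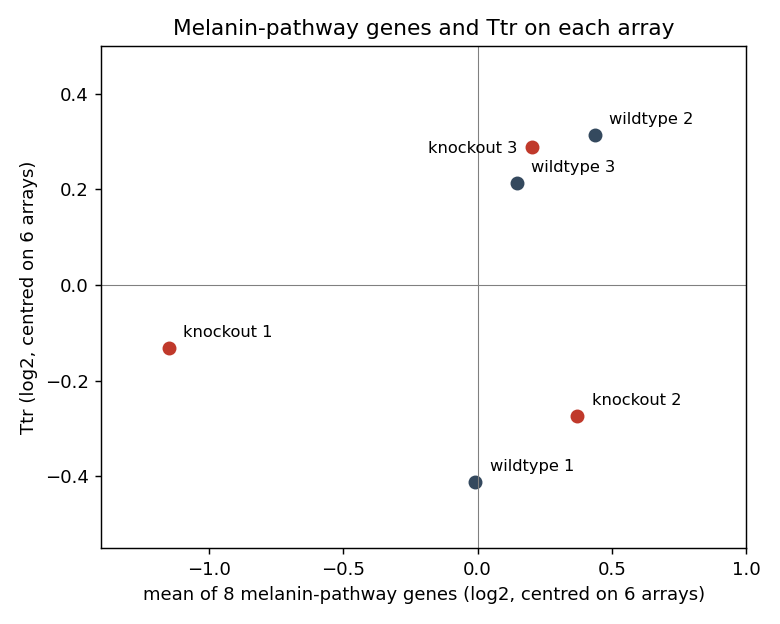
Ttr (vertical axis) against the mean of the 8 other tested members (horizontal axis) on each array, both as log2 values centred on their 6-array mean; red points are knockout and blue-grey points wildtype arrays. Knockout 1 is at -1.15 on the horizontal axis and -0.13 on the vertical, while wildtype 1 is at -0.01 and -0.41.

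Other pigment epithelium genes, 28 listed and 24 tested, gave no call in either direction. Of the 24 log2 changes 12 were below 0, against 49.1% of all genes, and the median was -0.0022. At an unadjusted p under 0.05 there were 2 of 24, Rlbp1 at -0.20 and Krt18 at 0.32, against 13.5% of all genes. Rlbp1 encodes the retinaldehyde-binding protein of pigment epithelium and Muller glia, and Krt18 is a keratin of simple epithelia. Ctsd, a lysosomal protease, and Cst3, a protease inhibitor, had log2 changes of 0.05 each.

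Rpe65, Lrat and Rgr, genes of the visual cycle, had the largest residual SD of this list. Rpe65, the isomerase of the visual cycle, had log2 values of 8.19, 8.13 and 8.79 in knockout retinas, against 7.46, 8.89 and 8.48 in wildtype retinas. Its lowest array was wildtype 1, and knockout 1 was not set apart. Lrat, which esterifies retinol, had 7.98, 8.11 and 8.59 in knockout retinas, against 7.52, 8.94 and 8.48 in wildtype retinas. Rgr, an opsin of pigment epithelium and Muller glia, had 10.46, 10.35 and 11.08 in knockout retinas, against 10.22, 11.31 and 10.86 in wildtype retinas. Their r with Ttr over the 6 arrays was 0.946 for Rpe65, 0.938 for Lrat and 0.968 for Rgr, and among other visual cycle genes 0.951 for Rdh5, 0.781 for Rdh10, 0.567 for Rrh and 0.375 for Rlbp1. The wildtype order of these 3 genes was that of all 9 members.

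In all, 7 of the 24 other pigment epithelium genes had r of at least 0.9 with Ttr (Rpe65, Lrat, Rgr, Rdh5, Krt8, Ermn and Slc6a20a), against 0.474% of all genes. With the mean of the 8 melanin-pathway members the count was 2 of 24, Timp3 and Cdh3, against 1.69% of all genes. Without wildtype 1 the r of the 7 genes with Ttr lay between 0.896 for Lrat and 0.959 for Rgr. Without knockout 1, a setting chosen after seeing the data, 176 genes in all (1.13%) had r of at least 0.9 with the mean of the 8, against 264 with it, and 31 genes were in both counts. Of the 24 other pigment epithelium genes 1 (Rrh) then passed, and Timp3 and Cdh3 were at 0.758 and 0.873. The limit of 0.9 was chosen after the values were seen, and no test was made of these counts.

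Genes of melanosome biogenesis and transport, 32 listed and 30 tested, also gave no call in either direction. Of the 30, 22 log2 changes were below 0, against 49.1% of all genes, with a median of -0.08. At an unadjusted p under 0.05 there were 5 of 30, against 13.5% of all genes. Gpnmb, a melanosomal glycoprotein, had log2 values of 8.56, 10.70 and 10.69 in knockout retinas, against 10.39, 10.73 and 10.56 in wildtype retinas. Knockout 1 was the lowest array by 1.84, a wider gap than for any member. Rab38 and Rab27a, small GTPases of melanosome traffic, were the other genes of the list with r of at least 0.9 with the 8 members. Without knockout 1, r over 5 arrays was 0.916 for Gpnmb, 0.413 for Rab38 and 0.644 for Rab27a. Myo5a, the myosin that carries melanosomes, had a log2 change of -0.26 (adjusted p = 0.356).

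Knockout 1 was the lowest of the 6 arrays for 10 of the 30 genes (Gpnmb, Rab38, Rab27a, Gpr143, Slc7a11, Mlph, Tpcn2, Bloc1s5, Lyst and Tfe3), or 33.3%, against 19.4% of all genes. Ap3d1, a subunit of the adaptor complex that sorts melanosomal cargo, was at 9.90, 10.10 and 9.83 in knockout retinas, against 10.05, 10.09 and 10.10 in wildtype retinas. Ap3b1, another subunit, was at 8.65, 8.70 and 8.59 in knockout retinas, against 8.76, 8.71 and 8.66 in wildtype retinas. Knockout 1 was the lowest array for neither. Slc7a11, the cystine transporter of pheomelanin synthesis, was at 5.52, 6.85 and 6.20 in knockout retinas, against 6.79, 6.60 and 6.49 in wildtype retinas. Gpr143, the melanosomal receptor of ocular albinism, was at 5.12, 6.14 and 6.03 in knockout retinas, against 5.56, 5.76 and 5.82 in wildtype retinas. For both of the last genes knockout 1 was the lowest array.

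Tested genes with an SD of at least 0.5 over the 6 arrays were ranked by Pearson's r with the mean of the tested members. Members and predicted or unnamed loci were left out of this ranking. The 10 most alike were Dcn (0.994), Bace2 (0.993), Lum (0.993), C2 (0.993), Bgn (0.991), Gja1 (0.988), Gpnmb (0.986), Tspan10 (0.980), Acta2 (0.964) and Gsta3 (0.963). Dcn, Lum and Bgn encode small leucine-rich proteoglycans of connective tissue. Without knockout 1, r over 5 arrays was 0.978 for Dcn, 0.944 for Gpnmb, 0.942 for Lum, 0.923 for Bace2, 0.914 for C2 and 0.904 for Bgn. It was 0.856 for Gja1, 0.843 for Tspan10, 0.789 for Gsta3 and 0.550 for Acta2, smooth muscle actin. None of the 10 was called between genotypes, with adjusted p-values of 0.558 to 0.769.

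Markers of choroid and sclera, the pigmented and fibrous coats behind the pigment epithelium, had their lowest value on knockout 1 in 7 of 7 tested genes, against 19.4% of all genes. Decorin, Dcn, had log2 values of 7.74, 9.84 and 9.76 in knockout retinas, against 9.45, 9.92 and 9.60 in wildtype retinas. The mean of the 7 tested choroid and sclera genes, each centred on its 6-array mean, was -0.67 on knockout 1, 0.20 on knockout 2 and 0.14 on knockout 3, against 0.07, 0.27 and -0.02 on wildtype 1, 2 and 3. Of the 7, 4 had r of at least 0.9 with the 8 melanin-pathway members (Col1a1, Col1a2, Dcn and Lum) and 0 with Ttr. Without knockout 1 these were 2 of 7, Dcn and Lum, and Col1a1 and Col1a2 were at 0.846 and 0.718. Col3a1, a fibrillar collagen, and Pdgfra, a growth factor receptor of mesenchyme, had log2 changes of -0.04 (adjusted p = 0.940) and 0.06 (adjusted p = 0.885). The list gave no call, and its part in the melanin gene values was not tested.

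Neural crest melanocyte markers came next. Ednrb, the endothelin receptor of melanocytes and also of glia, was the single one of 6 with r of at least 0.9, with values of 7.81, 8.43 and 8.32 in knockout retinas, against 8.37, 8.58 and 8.20 in wildtype retinas. Sox10, the neural crest factor, was at 5.28, 5.22 and 5.63 in knockout retinas, against 5.36, 5.76 and 5.43 in wildtype retinas, with no drop on knockout 1. For 3 of the 6 (Ednrb, Kit and Pax3), or 50%, knockout 1 was the lowest array, against 19.4% of all genes. Without knockout 1 the r of Ednrb was 0.669. The log2 change of Pax3, also a neural crest factor, was -0.07 (adjusted p = 0.780). None of the 6 was called. Mc1r, the melanocortin receptor, had a log2 change of 0.36 (adjusted p = 0.132, limma). The stem cell factor receptor Kit had one of -0.42 (adjusted p = 0.165, limma). The groups did not overlap for these 2 of the 6, nor for 20.3% of all genes.

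Ciliary body and iris genes held 2 calls. Best2, a bestrophin of ciliary epithelium related to Best1, fell, with 5.92, 6.37 and 6.51 in knockout retinas, against 7.43, 7.42 and 7.55 in wildtype retinas (log2 change -1.20, SE 0.14, adjusted p = 0.010, limma). Optc, which encodes the vitreous proteoglycan opticin, fell as well, with 10.94, 10.88 and 10.85 in knockout retinas, against 11.28, 11.34 and 11.38 in wildtype retinas (log2 change -0.44, SE 0.07, adjusted p = 0.042). They were 2 of the 11 tested genes of that list, and 0.346% of all genes fell. Of the 11, 6 (54.5%) had their lowest value on knockout 1, against 19.4% of all genes. The call of Best2 was lost without wildtype 2 or wildtype 3 (adjusted p = 0.059 and 0.058) and without both lens-rich arrays (0.065), and that of Optc without any single array (adjusted p from 0.064 to 0.194, limma). The call of Optc was also lost with the replicate block (adjusted p = 0.157), with no filter on dim probe sets (0.114), with the pigment epithelium list (0.091) or the lens list (0.064) as a covariate, and without knockout 2 and wildtype 1 together (0.144). Neither followed the members: r with the mean of the 8 was 0.581 for Best2 and 0.276 for Optc. The r values without knockout 1 were -0.333 for Best2 and -0.222 for Optc. Wls and Slc4a4, a Wnt secretion factor and a bicarbonate cotransporter, had r of at least 0.9 over 6 arrays, and -0.19 and 0.61 without knockout 1. Their log2 changes were -0.24 (adjusted p = 0.739) and -0.29 (adjusted p = 0.566). The water channels Aqp1 and Aqp4 had log2 changes of -0.01 and 0.27, and Wfdc1 one of 0.12 (adjusted p = 0.993, 0.308 and 0.672).

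**Figure D4:**
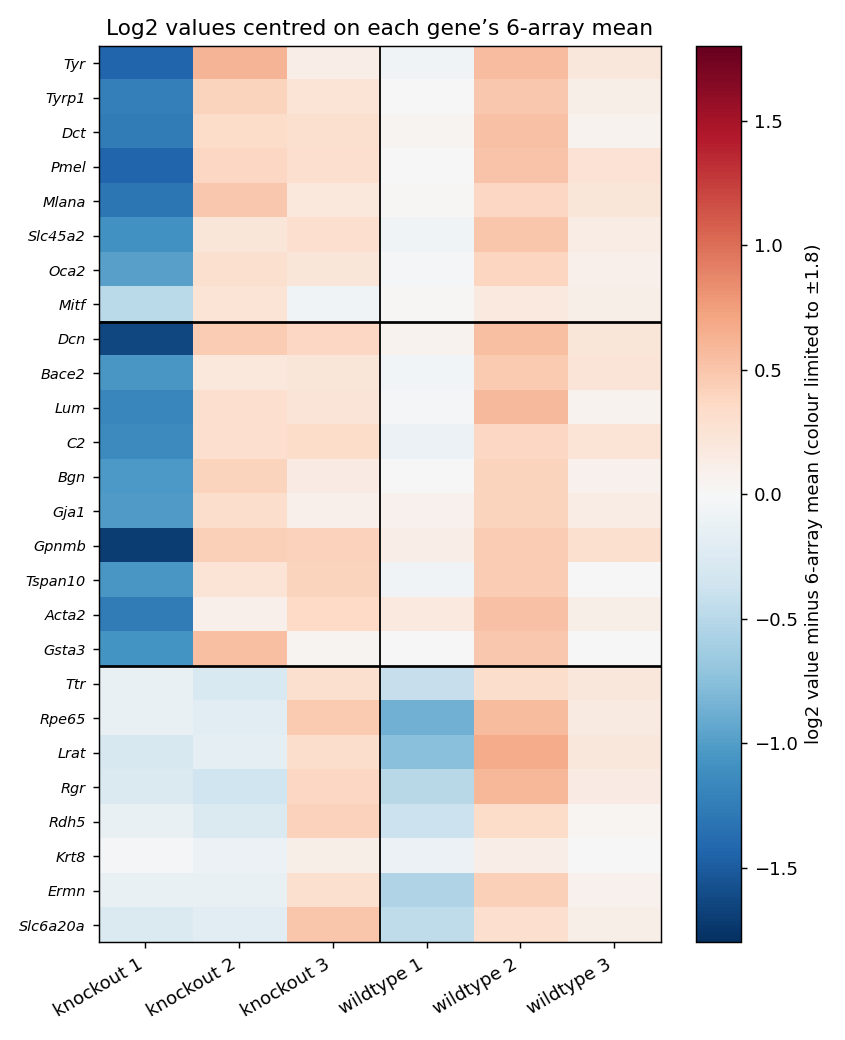
Log2 values of the named genes centred on each gene's 6-array mean (colour, limited to ±1.8), knockout arrays left and wildtype arrays right; rows are the 8 melanin-pathway members, the 10 genes most like the members, and Ttr with the 7 pigment epithelium genes most like it. Knockout 1 is the darkest blue column of the upper 2 blocks, and wildtype 1 is the darkest of the lowest block.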

How the data were processed

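The deposited table holds log2 expression values per probe set, produced by the authors with RMA (background correction, quantile normalization and probe summary), per the submitters' processing notes. No version or genome build is named there. Array medians lay between 5.57 and 5.64. Of 41345 probe sets, 23521 had exactly 1 symbol in the platform annotation, 1814 several and 16010 none; only the first were used. Testing required 3 or more of the 6 arrays to reach a log2 value of 5; the brightest such probe set stood for its gene, which left 15619 genes. Knockout and wildtype were compared with limma 3.58.1 in R 4.3.3 (lmFit, eBayes, genotype as the only term, 2-sided), with Benjamini-Hochberg adjustment over all genes. The procedure was tested on simulated data with noise independent between genes and arrays. That simulation held no shift shared by many genes on a single array. With 3 arrays against 3, an exact permutation test cannot go below p = 0.1. The labels describe each sample as the retinas of 1 mouse, and having 6 arrays limits the precision.

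The members and all gene lists were chosen with earlier results of these data known. Named genes are the members and, per list, the called genes, the 4 brightest and the 3 with the largest residual SD. The 10 genes most like the mean of the members are named too, with predicted or unnamed loci left out. Others were named after their values were seen. Of the blood list, 0 of 4 genes had a probe set with a single symbol. Alternatives covered the brightness limit, normalization, variance model, weighted arrays, a block for replicate number, averaged probe sets, each array left out, both lens-rich arrays left out, and the lens or the other pigment epithelium list as a covariate; correlations without knockout 1 were added after seeing the data. Figures were drawn with matplotlib 3.10.9.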

Additional observations from a re-analysis of the deposited data

How the results depend on the processing

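No member, no other pigment epithelium gene and no melanosome gene was called under any of the 17 alternatives, with limma throughout. Of 153 member log2 changes recomputed, 141 kept their sign and 12 changed it. Leaving out 1 array each, the log2 change ran from -0.89 to 0.13 for Tyr, -0.69 to 0.13 for Tyrp1, -0.70 to 0.10 for Dct, -0.82 to 0.081 for Pmel, -0.76 to 0.13 for Mlana, -0.62 to 0.081 for Slc45a2, -0.53 to 0.11 for Oca2, -0.37 to 0.0038 for Mitf and -0.30 to 0.061 for Ttr; for all but Ttr the highest value was the one without knockout 1. Ttr was at 0.0033 with array weights. Leaving out both lens-rich arrays kept knockout 1 and 3 against wildtype 2 and 3, so knockout 1 weighed more in the knockout mean. The log2 change was then -1.04 for Tyr, -0.95 for Pmel, -0.85 for Mlana, -0.79 for Tyrp1 and -0.78 for Dct. It was -0.70 for Slc45a2, -0.61 for Oca2, -0.40 for Mitf (95% interval -0.76 to -0.04) and -0.19 for Ttr. With 0 called, the smallest adjusted p was 0.339 (limma), for Mitf. Without knockout 1 alone, all of these but Ttr lay above 0. Replicate numbers are shared between the genotypes only as numbers: deviations of same-numbered arrays correlated at -0.27, -0.38 and -0.06, and with the replicate block Tyr stayed at -0.47 (adjusted p = 0.571). The total of 129 called genes became 74 with no filter on dim probe sets, 209 with a log2 floor of 6, 282 with an intensity trend and robust spread, 68 with the replicate block and 34 without the lens-rich arrays, and 25 to 138 with 1 array left out (25 without wildtype 2, 45 without wildtype 3, 57 without knockout 1, 69 without wildtype 1, 77 without knockout 3). Some of these settings use fewer arrays or genes, and the cause of the shifts was not tested.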

Other observations

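On knockout 1, 17 of 15619 genes lay at least 1 log2 unit below each of the other 5 arrays, and 6 of the 17 were members (Pmel, Tyr, Mlana, Dct, Tyrp1 and Slc45a2). On knockout 2, knockout 3, wildtype 1, wildtype 2 and wildtype 3 the count was 0, 3, 0, 0 and 1. With a limit of 0.5 log2 units the counts were 78 on knockout 1, 41 on knockout 2 and 18 on knockout 3, against 7, 8 and 8 on wildtype 1, 2 and 3. A further 3 of the 17 came from the other lists, Gpnmb, Dcn and Lum. The remaining 8 included the smooth muscle genes Acta2 and Myh11. Acta2 had log2 values of 8.89, 10.24 and 10.50 in knockout retinas, against 10.33, 10.68 and 10.25 in wildtype retinas, and Myh11 had 7.25, 8.47 and 8.38 in knockout retinas, against 8.28, 8.64 and 8.40 in wildtype retinas. In the other direction, 25 genes lay at least 1 log2 unit above all other arrays on wildtype 1, 6 of them from the lens list. Both limits were chosen after the values were seen, and no cause was tested.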
